A study of Mus musculus with 9 samples.

Results

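The 34 genes described here are a panel of cell cycle and DNA replication genes, measured in RNA from whole aorta of male mice (7 to 8 weeks of age, normal chow). They are 6 cyclin and cyclin-dependent kinase genes, 2 E2F transcription factor genes, 8 genes of origin licensing, 4 genes of the replication fork and of nucleotide supply, 3 genes of chromosome structure, 7 genes of mitotic kinases and the spindle, and 4 genes of the spindle checkpoint and the anaphase promoting complex. They were taken from a fixed list of names, and all 34 were found by symbol among the 33293 genes of the table. The groups were 4 libraries from Apoe knockout mice (Apoe_KO) and 5 libraries from C57BL/6J mice (WT). The labels state neither the background strain and allele of the knockout nor whether each library came from 1 animal, so the p-values below measure only the spread between these samples.

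A cell that enters division passes through the restriction point when cyclin-dependent kinases release E2F factors from the retinoblastoma proteins. E2F factors then raise the genes that license and fire replication origins and supply deoxynucleotides. Genes of mitosis follow later in the cycle, under the DREAM complex, B-MYB and FOXM1, and their transcripts are low in resting cells. The smooth muscle and endothelial cells of a healthy adult aorta rarely divide, whereas activated lymphocytes divide often. In RNA from whole tissue, a change in the number of cycling cells and a change in the RNA that each such cell holds cannot be told apart.

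The values are FPKM, that is reads scaled to exon length and to library depth, which allows levels to be compared between genes. The length counts every annotated exon of a gene, whether or not it is used in the aorta, which limits that comparison. Converted back to reads, they gave depths of 17.0 to 19.8 M per library. Apoe itself lay between 5.64 and 6.55 FPKM in the Apoe_KO libraries and between 513.0 and 642.9 FPKM in the WT libraries, so each library followed its label. The 10 smooth muscle markers summed to 5040.5 to 6381 FPKM in Apoe_KO and to 4890 to 5819 FPKM in WT, and markers of white and brown fat were present in all 9 libraries. One library of each genotype stood apart. All 14 B and plasma cell markers and all 14 T and NK cell markers were highest of their group in Apoe_KO 4 and in WT 2. The B and plasma cell markers summed to 549.0 FPKM in Apoe_KO 4 and to 16.8 to 34.1 FPKM in the other 3 Apoe_KO libraries, and to 615.1 FPKM in WT 2 and to 26.0 to 45.0 FPKM in the other 4 WT libraries. The main counts of calls between genotypes for the 34 genes are therefore given with and without Apoe_KO 4 and WT 2.

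Promoter sequences from RefSeq (GRCm38.p6), running from 250 bases before to 50 bases after the annotated start, were matched by symbol to 29 of the 34 genes and gave 31 promoters. The 5 below are shown as examples and do not cover the whole range of the panel. Mki67, Ccnb2 and Cdk1 are mitotic genes with a low level in most libraries. Mcm6 and Pcna are replication genes with a high level throughout. Capitals mark 3 motifs searched on both strands. These are the letters TTTGAA of the cell cycle homology region bound by the MuvB core of DREAM, the letters CCAAT bound by NF-Y, and the E2F letters TTTCCCGC, TTTGGCGC, TTTGCCGC and TTTCGCGC. No motif is contained in another, though 2 E2F matches overlap in Mcm6. The sequences run 5′ to 3′ on the minus strand, at chr7:135716330-135716629 for Mki67, chr9:70421505-70421804 for Ccnb2, chr10:69352863-69353162 for Cdk1, chr1:128359656-128359955 for Mcm6 and chr2:132253131-132253430 for Pcna.
Mki67: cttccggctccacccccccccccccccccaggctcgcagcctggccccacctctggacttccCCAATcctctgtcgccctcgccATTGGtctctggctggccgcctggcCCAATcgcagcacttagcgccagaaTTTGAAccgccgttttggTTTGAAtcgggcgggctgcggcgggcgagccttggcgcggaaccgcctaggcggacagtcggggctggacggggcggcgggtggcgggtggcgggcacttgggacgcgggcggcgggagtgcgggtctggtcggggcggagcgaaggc
Ccnb2: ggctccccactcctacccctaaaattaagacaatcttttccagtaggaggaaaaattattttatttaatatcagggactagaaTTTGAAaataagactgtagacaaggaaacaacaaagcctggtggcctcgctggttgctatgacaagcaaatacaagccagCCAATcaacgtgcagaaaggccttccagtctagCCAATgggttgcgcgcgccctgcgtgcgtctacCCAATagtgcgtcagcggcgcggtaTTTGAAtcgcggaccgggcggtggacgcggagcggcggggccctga
Cdk1: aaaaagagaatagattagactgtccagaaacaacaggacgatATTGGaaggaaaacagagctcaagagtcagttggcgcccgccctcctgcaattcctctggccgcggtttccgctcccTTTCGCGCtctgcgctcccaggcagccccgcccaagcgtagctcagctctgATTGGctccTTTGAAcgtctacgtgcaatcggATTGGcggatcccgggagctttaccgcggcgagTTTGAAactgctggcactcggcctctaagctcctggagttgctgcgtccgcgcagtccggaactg
Mcm6: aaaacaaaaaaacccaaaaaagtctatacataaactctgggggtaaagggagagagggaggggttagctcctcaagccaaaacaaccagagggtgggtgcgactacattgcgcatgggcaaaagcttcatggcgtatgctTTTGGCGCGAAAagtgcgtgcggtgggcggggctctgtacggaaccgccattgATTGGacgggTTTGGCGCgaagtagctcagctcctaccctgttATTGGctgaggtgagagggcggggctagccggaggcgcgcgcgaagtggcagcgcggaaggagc
Pcna: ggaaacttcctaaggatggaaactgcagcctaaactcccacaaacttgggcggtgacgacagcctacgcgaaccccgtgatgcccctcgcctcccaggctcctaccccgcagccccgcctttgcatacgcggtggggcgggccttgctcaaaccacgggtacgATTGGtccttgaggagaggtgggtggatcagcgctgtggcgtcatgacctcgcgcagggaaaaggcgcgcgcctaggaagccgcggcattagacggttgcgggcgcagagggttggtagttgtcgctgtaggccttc

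TTTGAA was found in 13 of the 31 promoters (41.9%), where 17.9% of all 32851 RefSeq promoters of the same length held it. CCAAT was in 25 (80.6%), against 37.4% of all promoters, and an E2F motif in 8 (25.8%), against 2.26% of all promoters. TTTGAA was present in Mki67, Top2a, Plk1, Aurka, Kif11, Bub1b, Cdc20, Ube2c, Cenpa, Ccnb2, Cdk1, E2f2 and Mcm2. For E2f2 it was found only in a window inside the gene, chr4:136180532-136180831, and not in the window near the gene start. TTTGAA was absent from the promoters of the mitotic genes Ccnb1, Cenpe, Bub1 and Birc5. Variants of these letters were not searched, so the absence covers only TTTGAA itself. The E2F letters were found in Cdc6, Cdt1, Mcm3, Mcm5, Mcm6, Mcm7, E2f2 and Cdk1. The windows of E2f1, Cdc6 and Mcm7 lay wholly inside these genes as annotated. Sequence before the outermost start of these genes was not searched, so the absence of a motif from E2f1 covers only that window. Most genes with TTTGAA act in mitosis, and most with the E2F letters license origins. A match describes letters in this window, not binding.

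The 34 genes together were low in 7 libraries and high in the other 2. Their summed level was 62.7, 64.5, 64.9 and 122.5 FPKM in Apoe_KO 1 to 4, against 63.5, 143.9, 69.3, 65.8 and 65.4 FPKM in WT 1 to 5. Apoe_KO 4 and WT 2 thus lay far above a narrow band that held the other 7 libraries of both genotypes. Pcna and Mcm6 made up much of the sum in that band. Without these 2 genes the sum was 31.3, 33.0, 32.3 and 79.0 FPKM in Apoe_KO 1 to 4, against 33.8, 100.3, 37.4, 35.0 and 35.9 FPKM in WT 1 to 5. In the 7 other libraries 18 of the 34 genes stayed below 1 FPKM.

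**Figure D1:**
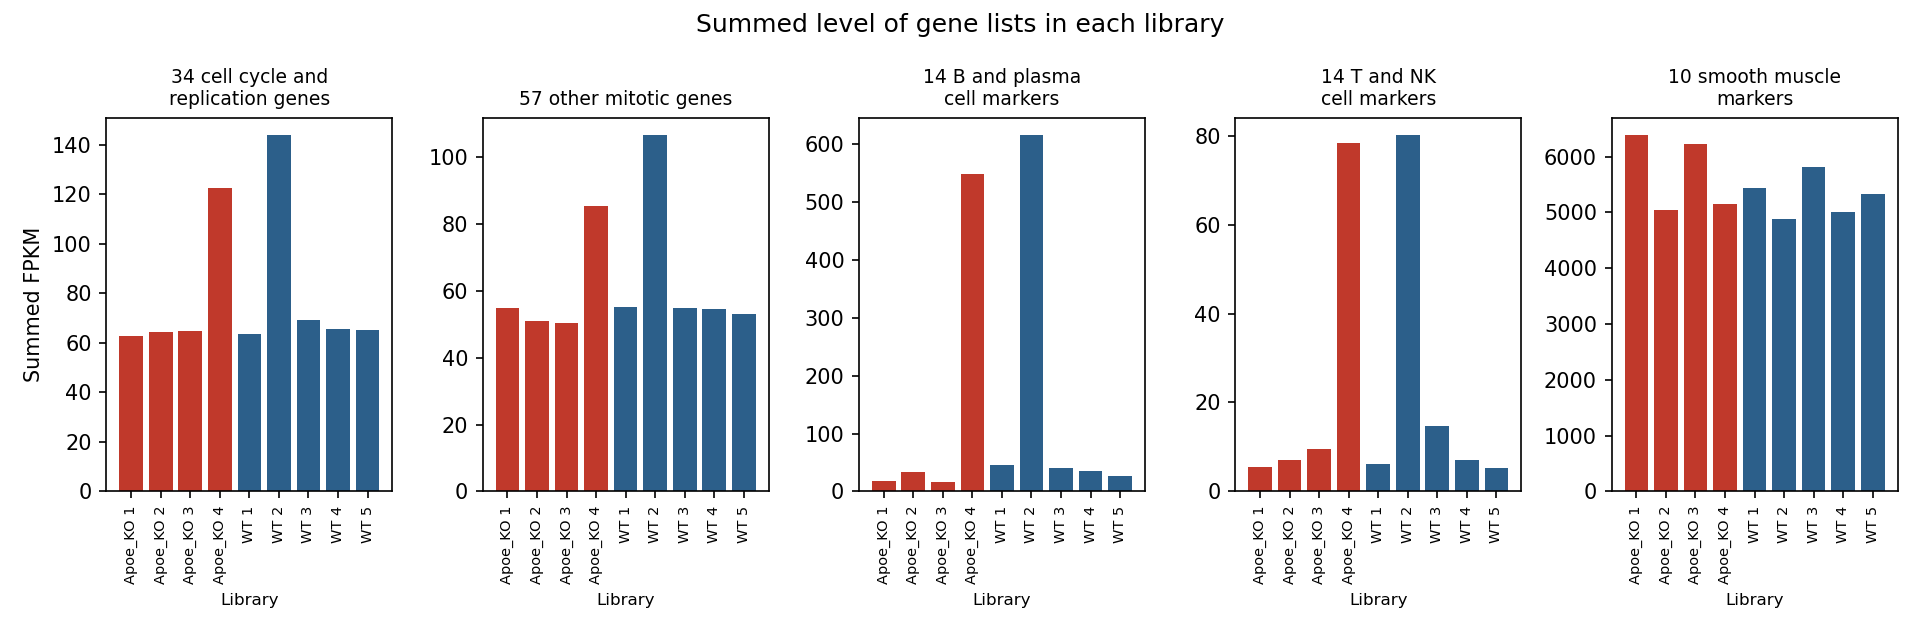
Summed FPKM of 5 gene lists (vertical axes, each starting at 0) in each of the 4 Apoe_KO libraries (red) and 5 WT libraries (blue). The 34 cell cycle and replication genes, the 57 other mitotic genes, and the B and T cell markers are all highest in Apoe_KO 4 and WT 2, while the smooth muscle markers are not.

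Among the cyclins, which bind and direct the cyclin-dependent kinases, Ccnb1 showed the sharpest contrast between libraries. Ccnb1 (chromosome 13, 100778650 to 100786570), whose protein starts mitosis with CDK1, had 0.267, 0.102, 0.164 and 1.63 FPKM in Apoe_KO 1 to 4, against 0.192, 1.42, 0.0629, 0.0744 and 0.204 FPKM in WT 1 to 5. These values rest on 22, 8, 13 and 126 reads in Apoe_KO and on 16, 102, 5, 6 and 16 reads in WT. Ccnb1 was close to the detection limit in 7 libraries and clearly present in the other 2. Ccnb2, the second B cyclin, had 0.97, 0.809, 0.347 and 2.78 FPKM in Apoe_KO 1 to 4, against 0.793, 2.69, 0.659, 0.546 and 0.667 FPKM in WT 1 to 5. Ccna2, the cyclin of S phase and early mitosis, had 0.452, 0.462, 0.455 and 1.68 FPKM in Apoe_KO 1 to 4, against 0.421, 2.54, 0.585, 0.743 and 0.592 FPKM in WT 1 to 5. All 3 genes were highest in Apoe_KO 4 and WT 2, and the genotypes overlapped.

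Cdk1 (chromosome 10, 69335146 to 69352938), the kinase that drives entry into mitosis, had 0.291, 0.524, 0.161 and 0.916 FPKM in Apoe_KO 1 to 4, against 0.369, 1.04, 0.29, 0.244 and 0.283 FPKM in WT 1 to 5. The E cyclins, which act with CDK2 at the start of S phase, varied less. Ccne1 had 1.08, 0.749, 0.638 and 1.49 FPKM in Apoe_KO 1 to 4, against 1.16, 1.79, 0.618, 0.923 and 0.585 FPKM in WT 1 to 5. Ccne2 had 1.86, 1.13, 1.38 and 1.53 FPKM in Apoe_KO 1 to 4, against 1.98, 2.22, 1.4, 1.24 and 1.03 FPKM in WT 1 to 5. Ccne2 was the 1 gene of the 34 that was not highest in both Apoe_KO 4 and WT 2, since Apoe_KO 1 exceeded Apoe_KO 4. It overlaps Ints8 on the opposite strand, and Ccna2 overlaps Exosc9. The strandedness of the counting is not given, so both genes are uncertain to that extent.

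The E2F factors behaved differently from each other. E2f1, an activator of replication genes, had 1.45, 1.45, 1.99 and 2.07 FPKM in Apoe_KO 1 to 4, against 1.46, 2.52, 1.88, 2.07 and 1.86 FPKM in WT 1 to 5. E2f2, a second activator of the family, had 0.378, 0.684, 0.511 and 1.82 FPKM in Apoe_KO 1 to 4, against 1.03, 2.87, 0.674, 0.557 and 0.902 FPKM in WT 1 to 5. E2f1 was hardly higher in Apoe_KO 4 and WT 2 than in their groups, at 1.43 and 1.35 times the median of the others, whereas E2f2 stood at 3.56 and 3.64 times that median.

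Origin licensing loads the MCM2 to MCM7 helicase on DNA with the help of CDC6 and CDT1. Of the 6 helicase genes, Mcm6 (chromosome 1, 128331590 to 128359664) had the highest level, with 11.2, 9.7, 11.9 and 13.4 FPKM in Apoe_KO 1 to 4, against 9.66, 14.7, 9.7, 9.31 and 10.2 FPKM in WT 1 to 5. Mcm2 (chromosome 6, 88883474 to 88898780) had 0.803, 1.08, 1.2 and 2.33 FPKM in Apoe_KO 1 to 4, against 1.24, 3.63, 1.3, 1.23 and 1.14 FPKM in WT 1 to 5. The subunits act in a single ring, but the FPKM values of their transcripts were not at a single level. Median levels over the 7 other libraries were 9.7 FPKM for Mcm6, 4.78 for Mcm4, 3.8 for Mcm7, 3.48 for Mcm3, 1.57 for Mcm5 and 1.2 for Mcm2. Ranges over these 7 libraries overlapped for Mcm7 and Mcm3, and for Mcm5 and Mcm2, while those of the other neighbours in this order did not. The order depends on the exon length, which was 6956 bases for Mcm2 and 3589 to 4666 bases for the others. In reads, Mcm2 had 109 to 171 and Mcm5 92 to 158 in these 7 libraries. The subunits of lowest level, Mcm5 and Mcm2, had the largest ratios in the 2 libraries. Mcm5 stood at 3.07 times the median of the other Apoe_KO libraries in Apoe_KO 4 and at 3.74 times that of the other WT libraries in WT 2, whereas Mcm6 stood at 1.2 and 1.51 times. Cdc6 was between 0.372 and 0.854 FPKM in Apoe_KO and between 0.368 and 0.922 FPKM in WT. Cdt1 was between 0.196 and 1.98 FPKM in Apoe_KO and between 0.308 and 1.48 FPKM in WT. Mcm7 overlaps Cops6 and Ap4m1 on the opposite strand and hosts microRNA genes, and its value is uncertain to that extent.

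Pcna (chromosome 2, 132249162 to 132253314), which encodes the sliding clamp of the replication fork and also serves in DNA repair, had the highest level of the 34 genes. It had 20.2, 21.8, 20.7 and 30.1 FPKM in Apoe_KO 1 to 4, against 20.0, 28.9, 22.3, 21.5 and 19.2 FPKM in WT 1 to 5. In FPKM this was the largest excess of any member in either library, 9.37 in Apoe_KO 4 and 8.1 in WT 2, yet a ratio of only 1.45 and 1.39. Of the genes of nucleotide supply, Rrm1 and Rrm2 encode the large and small subunits of ribonucleotide reductase. Rrm1 had 2.61, 2.98, 2.7 and 3.89 FPKM in Apoe_KO 1 to 4, against 2.83, 4.02, 2.7, 2.76 and 3.36 FPKM in WT 1 to 5. Rrm2, the subunit gene whose transcript follows S phase, had 0.758, 1.01, 1.02 and 3.46 FPKM in Apoe_KO 1 to 4, against 1.11, 3.84, 1.59, 0.566 and 1.18 FPKM in WT 1 to 5. The 2 subunit genes thus differed, with ratios of 1.44 and 1.44 for Rrm1 and of 3.42 and 3.35 for Rrm2. Tyms, which encodes the enzyme that makes thymidylate, was between 0.538 and 0.787 FPKM in Apoe_KO and between 0.598 and 1.06 FPKM in WT. Processed pseudogenes of Pcna, Tyms, Ccnb1 and Ccnb2 are annotated, and reads of these genes could be split with them.

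Mki67 (chromosome 7, 135689784 to 135716361) encodes Ki-67, the protein that coats mitotic chromosomes and is widely used to stain dividing cells. It had 0.713, 0.557, 0.992 and 4.78 FPKM in Apoe_KO 1 to 4, against 0.608, 8.01, 1.03, 0.811 and 0.817 FPKM in WT 1 to 5. Top2a (chromosome 11, 98992943 to 99024189), which encodes the topoisomerase that untangles sister chromatids, had 0.403, 0.55, 0.707 and 3.76 FPKM in Apoe_KO 1 to 4, against 0.421, 4.83, 0.972, 0.621 and 0.751 FPKM in WT 1 to 5. Both genes were several times higher in Apoe_KO 4 and WT 2 than in any of the other 7 libraries, and within those 7 the genotypes overlapped. Cenpa, the gene of the centromeric histone variant, was raised less, at 2.68 times the median of the others in Apoe_KO 4 and 2.59 times in WT 2.

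The 7 genes of mitotic kinases and the spindle summed to 2.62, 3.05, 3.04 and 9.5 FPKM in Apoe_KO 1 to 4, against 2.57, 13.9, 3.2, 3.36 and 2.72 FPKM in WT 1 to 5. Kif11, the motor that pushes spindle poles apart, had 0.383, 0.559, 0.573 and 1.83 FPKM in Apoe_KO 1 to 4, against 0.462, 3.08, 0.551, 0.477 and 0.401 FPKM in WT 1 to 5. Cenpe (chromosome 3, 135212537 to 135273611), a kinetochore motor, had 0.125, 0.162, 0.16 and 0.999 FPKM in Apoe_KO 1 to 4, against 0.2, 1.39, 0.166, 0.224 and 0.193 FPKM in WT 1 to 5. Every gene of this set was highest of its group in Apoe_KO 4 and in WT 2. Plk1, the polo-like kinase, was between 0.233 and 1.49 FPKM in Apoe_KO and between 0.269 and 2.46 FPKM in WT, and Apoe_KO 3, at 0.99 FPKM, came closest to Apoe_KO 4. It overlaps Gm44985 on the opposite strand. Aurora kinase genes differed in size of excess, with ratios of 2.16 and 2.61 for Aurka in Apoe_KO 4 and WT 2 and of 4.25 and 5.56 for Aurkb, whose protein belongs to the chromosomal passenger complex. Birc5, which encodes survivin, another passenger subunit, had ratios of 5.05 and 3.74, and Tpx2, whose protein activates Aurora A on the spindle, 2.7 and 3.87.

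Of the checkpoint genes, Bub1 had the lowest median level of the panel, 0.118 FPKM over the 7 other libraries. It had 0.118, 0.111, 0.244 and 0.676 FPKM in Apoe_KO 1 to 4, against 0.116, 0.662, 0.317, 0.0721 and 0.123 FPKM in WT 1 to 5. Bub1b, which encodes the checkpoint protein BUBR1, had 0.839, 0.605, 0.658 and 2.87 FPKM in Apoe_KO 1 to 4, against 0.959, 2.78, 0.782, 0.856 and 0.767 FPKM in WT 1 to 5. Both were highest in the same 2 libraries. Cdc20 and Ube2c, an activator and a ubiquitin-conjugating enzyme of the anaphase promoting complex, had ratios of 2.7 and 3.91 and of 3.97 and 4.08 in Apoe_KO 4 and WT 2. Cdc20 overlaps Elovl1 and Ube2c overlaps Tnnc2, each on the opposite strand.

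**Figure D2:**
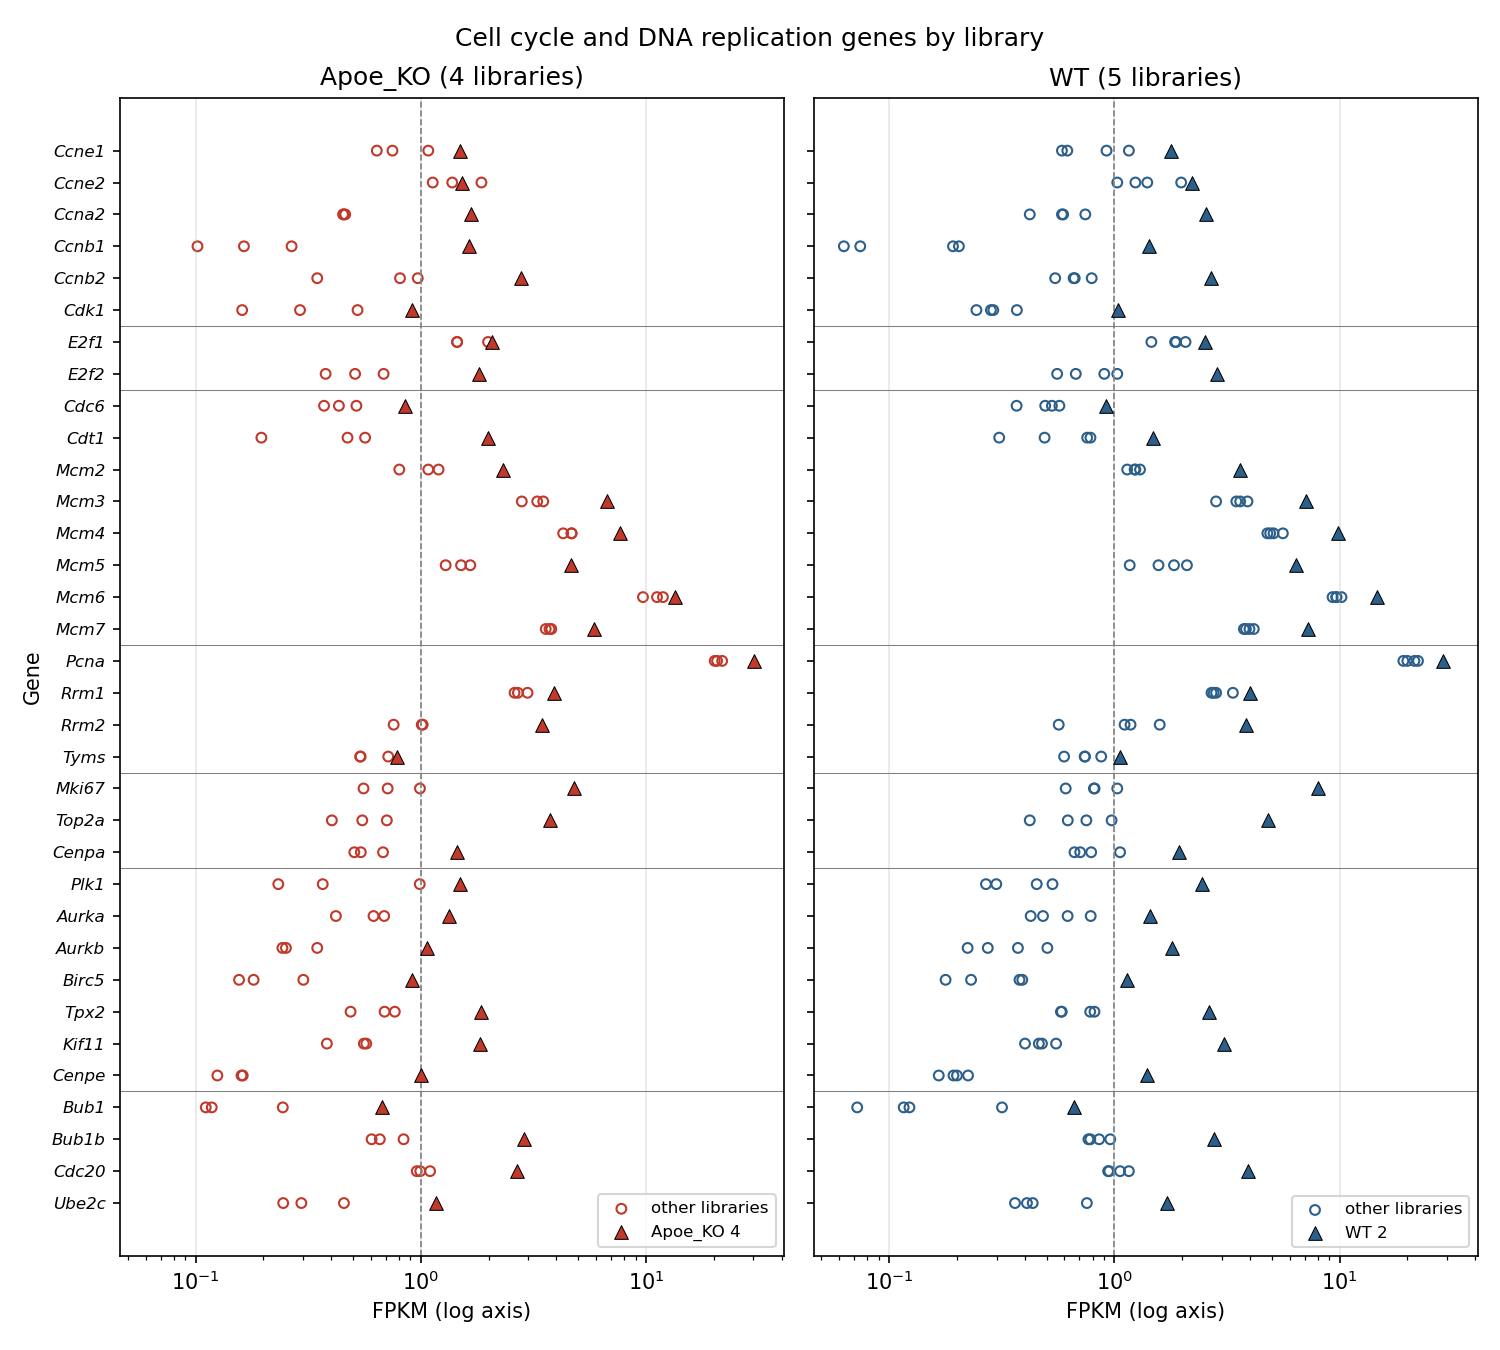
FPKM (log axis) of each of the 34 genes in the 4 Apoe_KO libraries (left) and the 5 WT libraries (right), ordered by role, with Apoe_KO 4 and WT 2 as filled triangles and the other libraries as open circles. The triangle is the rightmost point of its group in every row but that of Ccne2 in Apoe_KO.

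The excess in the 2 libraries was shared across the panel. In 33 of the 34 genes (97.1%) Apoe_KO 4 and WT 2 were each the highest of their group, which was so for 18.4% of the 20548 genes that averaged 0.1 FPKM or more. In 23 genes (67.6%) each reached 2 times the median of the others of its group, against 9.04% of all these genes, and in 17 (50%) each reached 3 times, against 6.52%. The median ratio over the 34 genes was 3.11 in Apoe_KO 4 and 3.5 in WT 2. By role, it was 6.7 and 7.04 for chromosome structure, 4.04 and 5.56 for mitotic kinases and the spindle, 4.16 and 4.0 for the checkpoint, 3.29 and 3.84 for cyclins and their kinase, 2.01 and 1.98 for origin licensing, and 1.45 and 1.44 for the fork and nucleotide supply. By these medians genes of mitosis had the larger ratios and genes of replication the smaller ones, though single genes crossed. The replication genes Rrm2 (3.42 and 3.35) and Mcm5 (3.07 and 3.74) exceeded the mitotic genes Aurka (2.16 and 2.61) and Cenpa (2.68 and 2.59).

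The genes kept a similar order in the 2 libraries. Across the 34 genes the ratios in Apoe_KO 4 and in WT 2 had a Spearman correlation of 0.88. Ccnb1 had the largest ratio in both, 9.95 and 10.68, followed by Top2a with 6.84 and 7.04, Mki67 with 6.7 and 9.84 and Cenpe with 6.24 and 7.09. At the other end were Mcm6, Ccne2, E2f1, Rrm1, Pcna and Tyms, all below 1.7 in both libraries. The ratio was lower where the gene's median level in the 7 other libraries was higher, with Spearman correlations of -0.74 for Apoe_KO 4 and -0.7 for WT 2. These correlations are across genes, which share libraries and depth and are not independent replicates. That level is also part of each ratio. The mitotic genes were also of low level, so role and level cannot be told apart here. By the promoter motifs shown above, genes with TTTGAA had median ratios of 3.43 and 3.91, and genes without it 2.02 and 2.15. Of the genes with the largest ratios, Ccnb1 and Cenpe held no TTTGAA, whereas Top2a and Mki67 did. Genes with an E2F motif had median ratios of 2.55 and 2.18, and genes without one 3.42 and 3.74. E2f1 was counted as without an E2F motif and E2f2 as holding TTTGAA, each through a window inside the gene. The motif sets follow the roles of the genes, so motif and role cannot be told apart here.

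**Figure D3:**
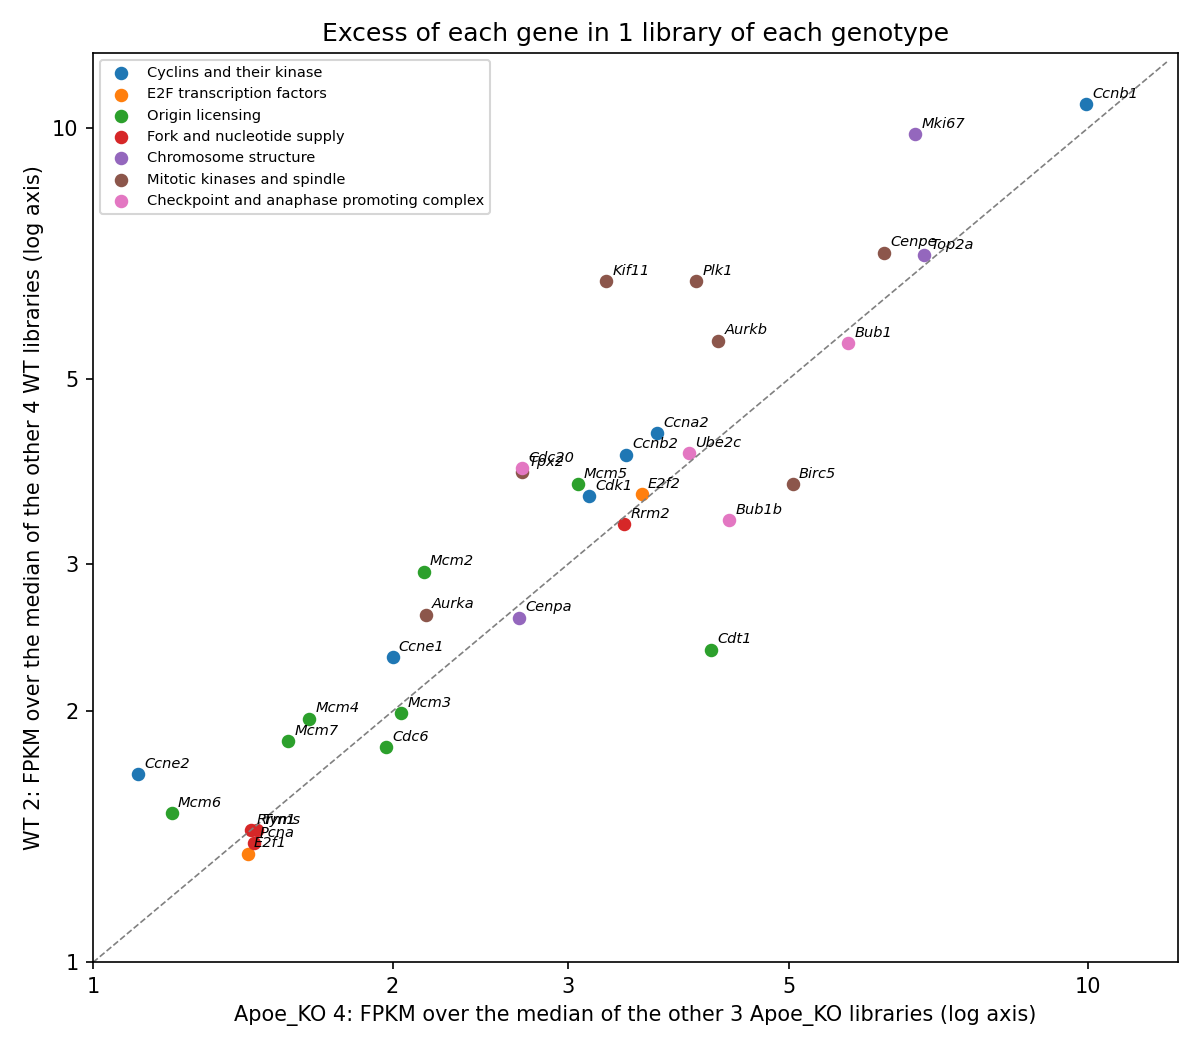
Ratio of FPKM in Apoe_KO 4 to the median of the other 3 Apoe_KO libraries (horizontal, log axis) and in WT 2 to the median of the other 4 WT libraries (vertical, log axis), 1 point per gene coloured by role, with the dashed line marking equal ratios. Ccnb1, Mki67, Top2a and Cenpe lie at the upper right and Mcm6, Pcna, Rrm1, Tyms and E2f1 at the lower left.

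Lymphocyte markers moved with these genes. The 14 T and NK cell markers summed to 5.44, 7.0, 9.53 and 78.3 FPKM in Apoe_KO 1 to 4, against 6.23, 80.1, 14.8, 7.13 and 5.23 FPKM in WT 1 to 5. Of the 28 lymphocyte markers, 26 were above 0 in every library, Tnfrsf13c and Ncr1 being at 0 in Apoe_KO 3. Of the germinal centre B cell list, 4 of 6 genes were highest in both libraries. The list summed to 17.1 to 24.3 FPKM in Apoe_KO and to 16.0 to 31.6 FPKM in WT. Most of this sum came from Fas in every library, with ratios of 0.91 in Apoe_KO 4 and 1.01 in WT 2. The median ratio of the list was 5.64 in Apoe_KO 4 and 7.27 in WT 2, over genes whose median in the other libraries was above 0. The part of these lymphocyte genes in the excess of the 34 genes was not tested.

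In 4 other marker lists more genes were highest of their group in Apoe_KO 4 than in WT 2. Of the 12 macrophage markers, 11 were highest of their group in Apoe_KO 4 and 0 in WT 2. They summed to 484.9 FPKM in Apoe_KO 4 and to 350.2 to 399.2 FPKM in the other 3 Apoe_KO libraries, and to 285.0 FPKM in WT 2 and to 245.0 to 323.8 FPKM in the other 4 WT libraries. Of the 6 thymocyte genes, 4 were highest in Apoe_KO 4 and 1 in WT 2. Their sum was 35.5 FPKM in Apoe_KO 4 and 21.3 to 29.6 FPKM in the other Apoe_KO libraries. It was 29.9 FPKM in WT 2 and 29.7 to 39.3 FPKM in the other WT libraries. Most of this sum came from Cd1d1 in every library. Dntt, which encodes the polymerase that adds bases at antigen receptor joints, had 0.265, 0.481, 1.2 and 4.56 FPKM in Apoe_KO 1 to 4, against 0.0476, 0.47, 2.29, 0.0491 and 0.151 FPKM in WT 1 to 5. Rag1, a recombinase gene of the same joints, had 0.326, 0.334, 1.18 and 2.45 FPKM in Apoe_KO 1 to 4, against 0.153, 0.0267, 2.98, 0.119 and 0.195 FPKM in WT 1 to 5. Both were highest in Apoe_KO 4 and WT 3, while Ptcra was at 0 in 7 of the 9 libraries. Of the 7 erythroid precursor genes, 5 were highest in Apoe_KO 4 and 2 in WT 2, and of the 10 endothelial markers 7 and 1. The erythroid list summed to 5.36 to 11.3 FPKM in Apoe_KO and to 12.1 to 25.9 FPKM in WT, mostly from Alas2 and Tfrc. The part of these markers in the excess of the 34 genes was not tested. Depth was 18.4 M in Apoe_KO 4 and 17.0 M in WT 2, both the lowest of their group.

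Between the genotypes, none of the 34 genes was called different. Of these, 13 passed the filter of at least 1 FPKM in at least 4 libraries, and 0 of the 13 were called by limma on log2(FPKM + 1) at a false discovery rate of 0.05, whereas 7.35% of all 13383 genes tested were called. At an unadjusted p under 0.05 there were also 0 of 13, and 24.6% of all genes. The lowest adjusted p of a member was 0.626, for E2f1 (limma). Log2 fold changes of Apoe_KO over WT ran from -0.17 for Mcm2 to 0.11 for Mcm6, and 11 of the 13 were below 0. Their median was -0.05, beside -0.07 for all genes tested, and it turned to 0.02 with median centring and to 0.05 with quantile normalization.

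The intervals show what differences remain possible. Pcna averaged 23.2 ± 4.62 FPKM in Apoe_KO (SD, n = 4) and 22.4 ± 3.82 FPKM in WT (SD, n = 5), with a log2 fold change of 0.05 and a 95% interval of -0.27 to 0.36. Mcm6 averaged 11.5 ± 1.55 FPKM in Apoe_KO and 10.7 ± 2.23 FPKM in WT, with a log2 fold change of 0.11 and an interval of -0.19 to 0.41. Mcm2 averaged 1.35 ± 0.67 FPKM in Apoe_KO and 1.71 ± 1.07 FPKM in WT, with a log2 fold change of -0.17 and an interval of -0.74 to 0.40. For Pcna and Mcm6 a 2-fold difference between genotypes lay outside the interval. Adding 1 to FPKM understates the fold change of genes of low level, and limma voom on the reads gave Mcm2 a wider interval of -1.16 to 0.61.

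The other 21 genes fell below the filter and were tested in other ways. On the recovered reads, limma voom tested all 34 genes and called 0, against 5.78% of 16609 genes, with 0 of 34 and 22.3% of all genes at an unadjusted p under 0.05. The lowest adjusted p of a member was 0.445, for Tyms (limma voom). Log2 fold changes ran from -0.50 for E2f2 to 0.62 for Ccnb1, with 24 below and 10 above 0, a median of -0.08 beside -0.11 for all genes, and a median SE of 0.52. Mki67 averaged 1.76 ± 2.02 FPKM in Apoe_KO (SD, n = 4) and 2.25 ± 3.22 FPKM in WT (SD, n = 5), and its log2 fold change was -0.08 with an interval of -1.98 to 1.82. Top2a averaged 1.35 ± 1.61 FPKM in Apoe_KO and 1.52 ± 1.86 FPKM in WT, with -0.14 and an interval of -1.96 to 1.69. Cdk1 averaged 0.473 ± 0.331 FPKM in Apoe_KO and 0.445 ± 0.334 FPKM in WT, with 0.05 and an interval of -1.15 to 1.25. The SDs of Mki67 and Top2a exceed their means because 1 library of each group holds most of the signal. A 2-fold difference in either direction lay within the intervals of these 3 genes. With a filter of 0.1 FPKM on the mean, limma on log2(FPKM + 1) tested all 34 genes, called 0 against 3.61% of 20548 genes, and found 0 at an unadjusted p under 0.05, against 19.1% of all genes.

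Leaving out Apoe_KO 4 and WT 2 narrowed most intervals without giving a call. These libraries held the highest values of nearly every member, so narrower intervals had to follow. In the 7 libraries 11 members passed the first filter and 0 were called, against 2.9% of 13020 genes, and 0 had an unadjusted p under 0.05, against 21.4% of all genes. The lowest adjusted p was 0.334, for Mcm6 (limma). The median SE of these 11 genes was 0.105 in 7 libraries, against 0.182 in 9. With voom on the reads of the 7 libraries 0 of 34 were called, against 2.65% of 16395 genes, and 0 had an unadjusted p under 0.05, against 19.8% of all genes. The lowest adjusted p was then 0.314, for Cenpa (limma voom), and the median SE was 0.261. The interval of Mki67 narrowed to -0.66 to 0.41 around -0.12, and that of Top2a to -0.98 to 0.40 around -0.29. That of Cdk1 narrowed to -0.915 to 0.885 around -0.015. A 2-fold difference lay outside these intervals, for Top2a only just. They leave out the spread that Apoe_KO 4 and WT 2 add, so they do not exclude such a difference over all 9 libraries. The log2 fold change was below 0 for 25 genes and above 0 for 9, with a median of -0.13 beside -0.09 for all genes.

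The separate values of the libraries were compared as well. In 9 libraries the values of Apoe_KO and WT overlapped for every member, so that 0 of 34 were separated, against 9.54% of the 20548 genes that averaged 0.1 FPKM or more and 12.4% of the 13383 genes tested. As each group held a library far above its others for most members, this overlap was nearly fixed in advance and says little about genotype. In the 7 libraries 2 members, Mcm4 and Cenpe, were separated (5.88%), against 16.2% of the 20548 genes. Mcm4 (chromosome 16, 15623897 to 15637400) had 4.67, 4.68 and 4.29 FPKM in Apoe_KO 1 to 3, against 4.78, 5.09, 4.92 and 5.6 FPKM in WT 1, 3, 4 and 5, and its adjusted p was 0.364 (limma, 7 libraries). For Cenpe the 3 Apoe_KO libraries lay at 0.125 to 0.162 FPKM, just below 0.166 to 0.224 FPKM in the 4 WT libraries. The median of the 3 Apoe_KO libraries was below that of the 4 WT libraries in 26 of the 34 genes and above it in 8. No such count over all genes is given beside it. The median log2 fold change of all genes tested in the 7 libraries was also below 0, at -0.09 with voom and -0.06 with limma. The count is therefore not read as a result about these members.

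**Figure D4:**
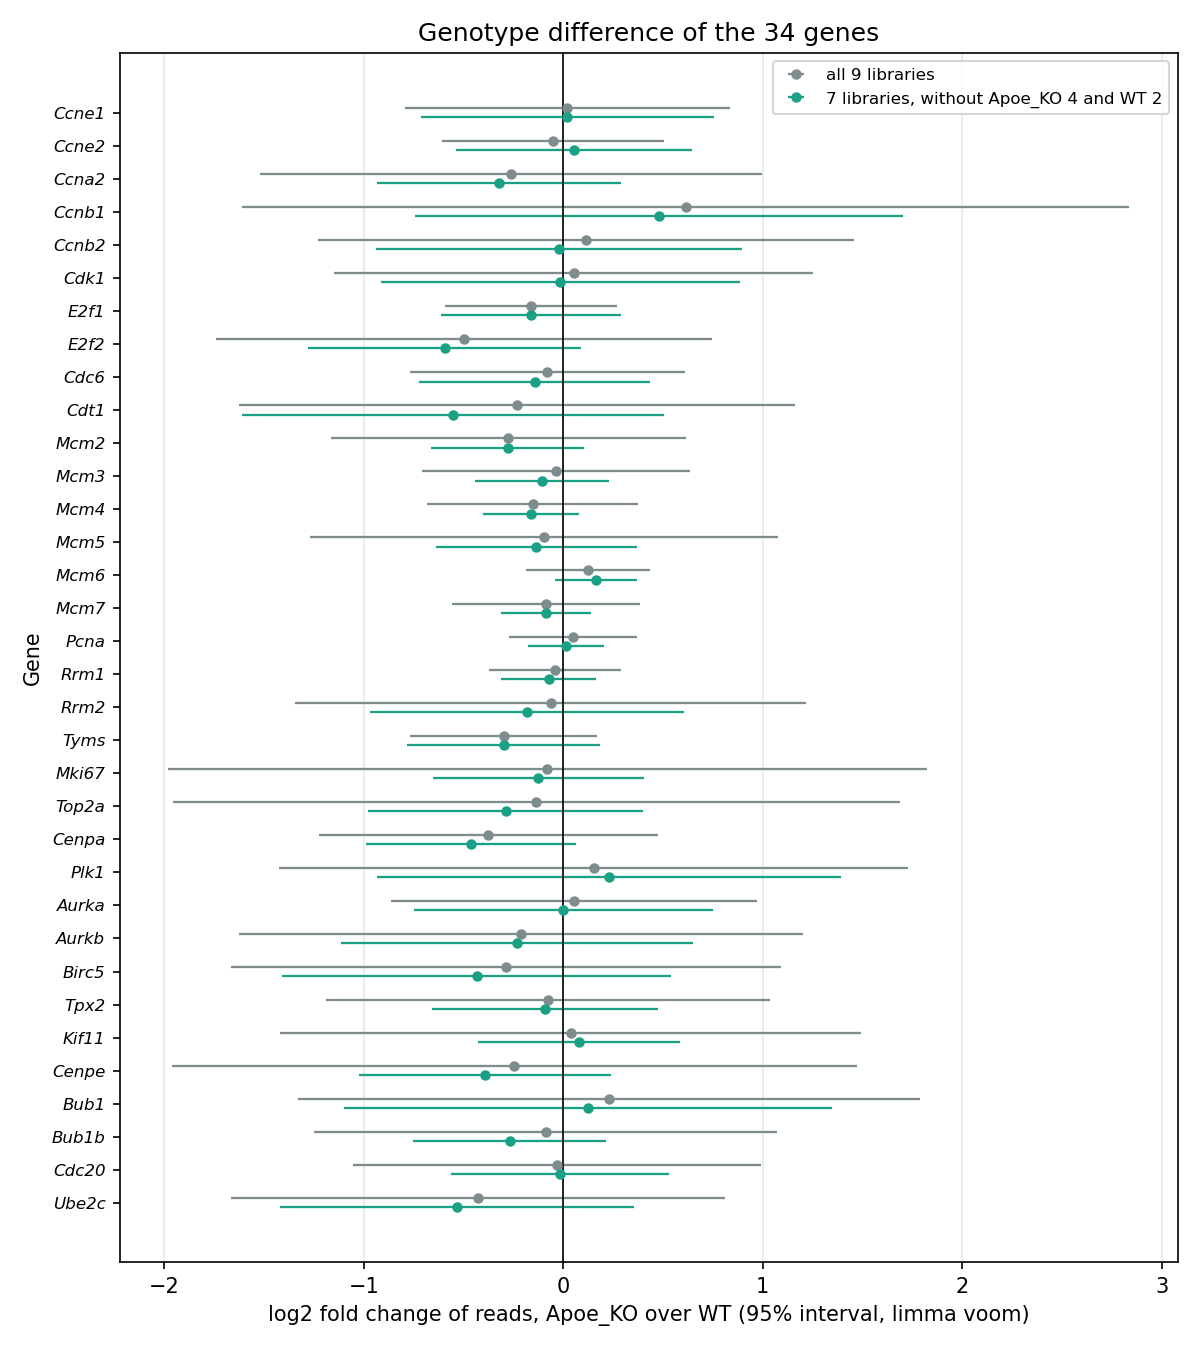
Log2 fold change of Apoe_KO over WT for each of the 34 genes (horizontal, with 95% intervals) from limma voom on recovered reads, with all 9 libraries (grey) and with the 7 libraries that remain without Apoe_KO 4 and WT 2 (green). Every interval includes 0, and most are narrower with 7 libraries.

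Around the panel, 145 further genes of the cell cycle were read from the same fit in 6 lists. Of these 78 were tested, 3 were higher and 2 lower in Apoe_KO, where 3.43% of all genes tested were called higher and 3.92% lower. Over all genes that is 459 higher and 524 lower, a balance that was 630 to 269 with median centring and 485 to 240 with quantile normalization. The CDK inhibitor genes, whose proteins hold cells out of division, included the largest differences. Cdkn1a (chromosome 17, 29090976 to 29100727), the gene of p21, had 32.0, 44.0, 36.2 and 50.4 FPKM in Apoe_KO 1 to 4, against 13.0, 18.4, 20.1, 17.9 and 15.9 FPKM in WT 1 to 5. The groups did not overlap, and Cdkn1a rose by 1.20 on the log2 scale (SE 0.149, limma adjusted p = 0.00225). Cdkn2c (chromosome 4, 109660876 to 109667189), the gene of the CDK4 and CDK6 inhibitor p18, had 9.86, 14.6, 9.94 and 12.2 FPKM in Apoe_KO 1 to 4, against 21.2, 24.4, 22.4, 27.0 and 15.9 FPKM in WT 1 to 5. These groups did not overlap either, and Cdkn2c fell by 0.87 (SE 0.155, limma adjusted p = 0.0117), though the adjusted p was 0.0573 without Apoe_KO 4 and WT 2. The inhibitor list of 8 genes thus held 1 call in each direction among 6 tested, with a median log2 fold change of -0.11. Neither gene was strongly raised in Apoe_KO 4 or WT 2, at 1.39 and 1.09 times the median of the others for Cdkn1a and 1.23 and 1.12 times for Cdkn2c. Cdkn1a overlaps an annotated gene on the opposite strand.

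Among 15 other cyclins, kinases and phosphatases, 12 were tested and 1 was higher. This was Wee1 (chromosome 7, 110122046 to 110143286), the kinase gene whose product restrains CDK1, with 16.7, 14.8, 16.4 and 13.4 FPKM in Apoe_KO 1 to 4, against 9.56, 10.1, 9.35, 7.4 and 10.9 FPKM in WT 1 to 5. The groups did not overlap, and Wee1 rose by 0.65 (SE 0.105, limma adjusted p = 0.00803). Ccnd1, the D cyclin gene that links growth signals to CDK4, had 7.89, 8.58, 10.3 and 10.6 FPKM in Apoe_KO 1 to 4, against 12.5, 11.6, 9.2, 10.5 and 12.2 FPKM in WT 1 to 5. Its groups overlapped, and its log2 fold change was -0.24 with an interval of -0.48 to 0.01 (limma adjusted p = 0.215). Ccnd1 overlaps LTO1 on the opposite strand.

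Of the 17 RB, E2F and DREAM regulators 13 were tested and 0 were called by limma, with 1 at an unadjusted p under 0.05. The 2 with the smallest p were Rbl1, the gene of the pocket protein p107, at -0.40 (limma adjusted p = 0.157), and E2f3 at 0.15 (0.265). Rbl1 had 1.52, 1.25, 1.32 and 2.6 FPKM in Apoe_KO 1 to 4, against 2.16, 3.5, 2.27, 2.45 and 2.14 FPKM in WT 1 to 5. It was high in the same 2 libraries as the panel, and without them it was called lower in Apoe_KO (limma adjusted p = 0.041). Of the 38 other origin and fork genes 29 were tested and 0 were called by limma, with 4 at an unadjusted p under 0.05. The smallest p there belonged to Pold2, a subunit gene of DNA polymerase delta, at -0.27 (limma adjusted p = 0.0706), and to Rpa3, a subunit gene of the single-strand binding protein, at -0.37 (0.117). Those 38 genes summed to 101.7 to 131.4 FPKM in Apoe_KO and to 112.3 to 155.8 FPKM in WT, highest in Apoe_KO 4 and WT 2.

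Of the 10 other genes of nucleotide supply 9 were tested and 1 was lower. Gart, a purine synthesis gene, had 8.47, 8.29, 9.15 and 8.31 FPKM in Apoe_KO 1 to 4, against 10.5, 10.8, 10.3, 10.1 and 9.77 FPKM in WT 1 to 5. It fell by 0.24 (SE 0.057, limma adjusted p = 0.032), overlaps Gm15964 on the opposite strand, and lost its call in 13 of 18 alternatives, with adjusted p of up to 0.165 (limma). Among the 57 other mitotic genes 9 were tested and 1 was higher. Anln, the gene of the contractile ring protein anillin, had 6.14, 5.43, 5.57 and 4.98 FPKM in Apoe_KO 1 to 4, against 4.29, 3.63, 4.49, 4.11 and 4.14 FPKM in WT 1 to 5. Anln rose by 0.35 (SE 0.077, limma adjusted p = 0.0273) and lost its call in 8 of 18 alternatives, with adjusted p of up to 0.143 (limma). It was not raised in Apoe_KO 4 and WT 2, unlike 50 of the 57 genes of its list, whose median ratios were 2.79 in Apoe_KO 4 and 3.5 in WT 2. Over all 6 lists, 98 of the 145 genes were highest of their group in both libraries.

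**Figure D5:**
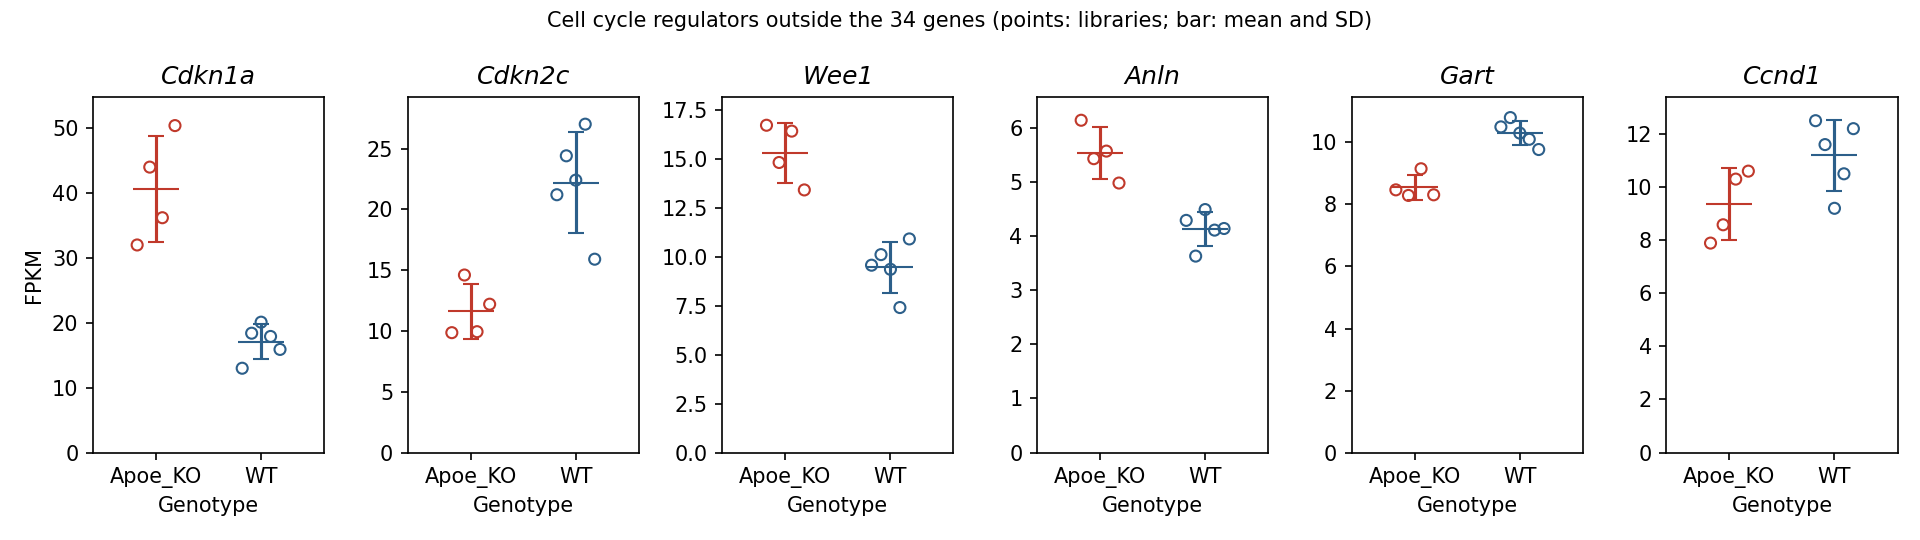
FPKM (vertical, starting at 0) of 6 cell cycle regulators outside the panel in 4 Apoe_KO libraries (left in each plot) and 5 WT libraries (right), with points for libraries, a horizontal line for the mean and bars for the SD. The genotypes do not overlap for Cdkn1a, Cdkn2c, Wee1, Anln and Gart, and overlap for Ccnd1.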

How the data were processed

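The members and the gene lists were chosen with earlier results of these data known. RNA of whole mouse aorta was sequenced after removal of ribosomal RNA, per the labels' protocols, while the labels name the molecule as polyA RNA. Per the submitters' processing notes, the build was GRCm38 and limma was used. The sources used here give no aligner, counter, annotation or strandedness.

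The authors deposited 1 table of 33293 genes with no stated unit, and the deposited values were taken as FPKM from the values themselves. Multiplied by the exon length in GENCODE mouse release 21, which held 33240 of the identifiers, they gave whole reads at 1 depth per library, 17.0 to 19.8 M. Within 0.1 read, 97.6% to 97.9% of values of up to 50 reads and 94.9% to 95.4% of all values were whole, where chance gives 20%. Whether reads or fragments were counted is not stated. For a gene of 2 kb, 1 read meant 0.0253 to 0.0294 FPKM, which limits the precision of the low genes. The test was limma 3.58.1 (R 4.3.3, trend and robust options) on log2(FPKM + 1), with genotype as the only term, over all genes that reached 1 FPKM in 4 or more libraries. Benjamini-Hochberg adjustment ran over all genes tested, and the threshold was 0.05. The alternatives were a block for the replicate number, each library left out in turn, Apoe_KO 4 and WT 2 left out together, no filter, a filter of 0.1 FPKM on the mean, a pseudocount of 0.1, median centring, quantile normalization, and voom on the recovered reads of genes with a mean of at least 10 reads. Voom without Apoe_KO 4 and WT 2 was chosen after seeing the data. The steps were tested on simulated data.

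All 34 members are accounted for. Values in every library were set to be given for Mki67, Top2a, Cdk1, Pcna, Mcm2 and Ccnd1, for members called, and for members whose groups do not overlap. Other members given by library were chosen after their values were seen. Of each further list, up to 4 called genes are named by smallest p or, with none called, the 2 of smallest p. Motifs and ratios were computed with Python 3.11.15, numpy 2.4.6 and pandas 2.3.3, and plots with matplotlib 3.10.9. Values of 1 marker gene are not reported here.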

Additional observations from a re-analysis of the deposited data

Results flagged for a closer look

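In each genotype the gap between the highest or lowest library and its nearest neighbour was set against the whole range of the group and flagged above Dixon's critical value. Chance flags about 1 in 20 such groups when the values follow a normal distribution, which FPKM values need not do. Of 68 member groups 36 were flagged, all through a single high library, which was Apoe_KO 4 in 14 and WT 2 in 22. The groups share the same libraries, so these flags are not independent of each other. No share of flagged groups over all genes is given beside them, so the count is not read as particular to these members. Apoe_KO 4 and WT 2 were each highest of their group for 18.4% of the 20548 genes that averaged 0.1 FPKM or more.

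Apoe_KO 4 stood far above the other 3 Apoe_KO libraries for the cyclin genes Ccna2 (1.68 FPKM) and Ccnb1 (1.63 FPKM). The helicase genes Mcm4 (7.68 FPKM), Mcm5 (4.65 FPKM) and Mcm7 (5.87 FPKM) behaved likewise, as did the replication genes Pcna (30.1 FPKM) and Rrm2 (3.46 FPKM). So did the chromosome genes Mki67 (4.78 FPKM) and Top2a (3.76 FPKM), the spindle genes Aurkb (1.07 FPKM), Kif11 (1.83 FPKM) and Cenpe (0.999 FPKM), and the checkpoint genes Bub1b (2.87 FPKM) and Cdc20 (2.68 FPKM).

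WT 2 stood far above the other 4 WT libraries for the cyclin and kinase genes Ccna2 (2.54 FPKM), Ccnb1 (1.42 FPKM), Ccnb2 (2.69 FPKM) and Cdk1 (1.04 FPKM), and for E2f2 (2.87 FPKM). All 6 helicase genes were flagged there, Mcm2 (3.63 FPKM), Mcm3 (7.09 FPKM), Mcm4 (9.82 FPKM), Mcm5 (6.38 FPKM), Mcm6 (14.7 FPKM) and Mcm7 (7.22 FPKM). The mitotic genes flagged were Mki67 (8.01 FPKM), Top2a (4.83 FPKM), Plk1 (2.46 FPKM), Aurkb (1.8 FPKM), Birc5 (1.14 FPKM), Tpx2 (2.64 FPKM), Kif11 (3.08 FPKM) and Cenpe (1.39 FPKM). The last were the checkpoint and anaphase genes Bub1b (2.78 FPKM), Cdc20 (3.94 FPKM) and Ube2c (1.72 FPKM). Of the 10 further genes named by the rule, Rbl1 was flagged, at 3.5 FPKM in WT 2.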

How the results depend on the processing

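With every alternative run, limma called 0 of the members tested, which were 11 to 34. Over all genes the count of 983 calls moved to 183 with the replicate block, 377 without Apoe_KO 4 and WT 2, 445 with no filter, 435 with voom without Apoe_KO 4 and WT 2, and 383 to 1259 when 1 library was left out. The replicate numbers did not pair the libraries, since libraries with the same number correlated in their deviations at 0.26, -0.27, -0.13 and -0.22 and Apoe_KO 1 alone correlated best with its own number. The members' median was -0.12 with the block. The cause of these changes was not tested. Of 408 alternatives for single genes, most kept direction and side of the threshold, 23 lost a call (Gart 13, Anln 8, Cdkn2c 2), and 3 gained one (Rbl1). In 49 an uncalled member near 0 changed sign. Pcna was -0.003 with the block, and Ccne2 was 0.029 without Apoe_KO 4 and WT 2. Ccne1 was 0.006 with a pseudocount of 0.1 and 0.021 with voom. With voom without Apoe_KO 4 and WT 2, Ccne1 was 0.02 and Ccne2 0.054. Median centring gave 0.062 for Ccne1, 0.024 for Ccne2, 0.031 for Mcm3, 0.036 for Rrm1, 0.015 for Rrm2 and 0.021 for Cdc20. Quantile normalization gave 0.138 for Ccne1, 0.104 for Ccne2, 0.01 for E2f1, 0.053 for Mcm3, 0.007 for Mcm5, 0.009 for Mcm7, 0.077 for Rrm1, 0.077 for Rrm2 and 0.086 for Cdc20. Leaving out 1 library gave -0.084 to 0.081 for Ccne1, -0.124 to 0.043 for Ccne2, -0.351 to 0.039 for Mcm2, -0.257 to 0.136 for Mcm3, -0.301 to 0.026 for Mcm4, -0.388 to 0.204 for Mcm5, -0.216 to 0.068 for Mcm7, -0.081 to 0.137 for Pcna, -0.127 to 0.041 for Rrm1, -0.356 to 0.191 for Rrm2 and -0.265 to 0.21 for Cdc20. Ccne1 and Cdc20 fell below the filter in some alternatives and had no value there. The lowest count behind a member was that of Ccnb1 in WT 3, 5 reads, so fold changes of the lowest genes rest on little.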

Other observations

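Regulators of the mitotic genes that lay below the filter, chosen after their values were seen, were also highest in Apoe_KO 4 and WT 2. Foxm1, the gene of a forkhead factor that acts in G2 phase, had 0.409, 0.374, 0.323 and 1.07 FPKM in Apoe_KO 1 to 4, against 0.457, 1.18, 0.314, 0.472 and 0.607 FPKM in WT 1 to 5. It overlaps Tex52 on the same strand and is uncertain to that extent. Mybl2, the gene of B-MYB, had 0.111, 0.163, 0.183 and 0.459 FPKM in Apoe_KO 1 to 4, against 0.208, 1.17, 0.355, 0.35 and 0.174 FPKM in WT 1 to 5. Both were about as low as the mitotic members in the other 7 libraries. Cdkn2a, the locus of the inhibitor p16, was near the detection limit, between 0 and 0.186 FPKM in Apoe_KO and between 0 and 0.351 FPKM in WT.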
